A study of Mus musculus with 12 samples.

Results

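The 10 tissue isoform genes of cytochrome c oxidase were followed in the hearts of mice with and without deletion of Cyb5r3 in cardiomyocytes. They were chosen by name as the subunits that have more than one form, namely the muscle and ubiquitous forms Cox6a2 and Cox6a1, Cox7a1 and Cox7a2, and Cox8b and Cox8a, and the pair Cox4i2 and Cox4i1, with the relatives Cox7a2l and Cox6b1. All 10 were found among the 53700 genes counted, and all 10 passed the filter on low counts. RNA came from the hearts of 6 ac-WT mice (CYB5R3wt/wt, Myh6-CreERT2) and 6 ac-CYB5R3–KO mice (CYB5R3fl/fl, Myh6-CreERT2), all male. Both groups carried the Cre transgene. Both received tamoxifen (33 mg/kg/d) over 5 days when 10 to 13 weeks old, and the tissue was collected 5 days afterwards. Cre driven by Myh6 acts in cardiomyocytes, whereas RNA of the whole heart also holds that of its other cells.

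Cytochrome c oxidase, or complex IV, is the last enzyme of the respiratory chain and passes electrons from cytochrome c to oxygen. Its catalytic core is made in the mitochondrion and is surrounded by small subunits encoded in the nucleus. Heart and skeletal muscle of the mouse use their own forms of COX6A, COX7A and COX8 beside the forms made in most tissues, and COX4 has a second form known from lung and from the response to low oxygen.

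Cyb5r3, the deleted gene, was measured first as a check of the labels. Its level in CPM, counts per library size scaled by the TMM method of edgeR, was 81.8 to 185 in the ac-WT group and 42.0 to 67.4 in the ac-CYB5R3–KO group, with no overlap. The log2 fold change was −1.22 ± 0.19 (SE, n = 6 and 6, edgeR adjusted p = 0.0449). With total counts in place of TMM, the library labelled ac-WT 2 held Cyb5r3 at 46.6 CPM, below the highest ac-CYB5R3–KO library at 75.4. Libraries held 43393183 to 53754284 counts. Libraries 2 and 3 of the ac-WT group stood apart, with TMM factors of 0.570 and 0.723 against 0.988 to 1.22 in the other 10, and with 35.3% and 34.8% of counts from mitochondrially encoded genes against 24.0% to 30.1%. Of the 10 members, 9 had their highest level of all 12 hearts in ac-WT 2, and 7 had their top pair of ac-WT levels in hearts 2 and 3. The members' TMM fold changes and their ratios are also given without these hearts. The labels do not say more of the samples than that each is a heart, so p-values measure the spread between these hearts.

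The promoters of the muscle and ubiquitous forms are shown because the forms are told apart by where they are transcribed. RefSeq windows of the 250 bases before the start (GRCm38.p6) were matched for 7 of the 10 members, and not for Cox4i1, Cox4i2 or Cox6a2. Capitals mark matches, on either strand, to the motifs of NRF1, ETS, ERR, the E-box, MEF2, YY1 and the TATA box. The muscle forms Cox8b (chr7:140900447-140900696, minus strand) and Cox7a1 (chr7:30183921-30184170, plus strand) come first, followed by the ubiquitous forms Cox8a (chr19:7217617-7217866, minus strand), Cox7a2 (chr9:79759854-79760103, minus strand) and Cox6a1 (chr5:115348959-115349208, minus strand).
Cox8b: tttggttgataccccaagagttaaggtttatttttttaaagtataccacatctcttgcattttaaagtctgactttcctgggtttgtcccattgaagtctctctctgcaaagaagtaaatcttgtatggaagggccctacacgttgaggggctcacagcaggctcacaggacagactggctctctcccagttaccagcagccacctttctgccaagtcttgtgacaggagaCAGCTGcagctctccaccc
Cox7a1: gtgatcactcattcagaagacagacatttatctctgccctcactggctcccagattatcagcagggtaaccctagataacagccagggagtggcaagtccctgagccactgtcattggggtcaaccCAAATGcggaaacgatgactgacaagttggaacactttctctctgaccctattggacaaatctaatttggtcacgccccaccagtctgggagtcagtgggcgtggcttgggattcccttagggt
Cox8a: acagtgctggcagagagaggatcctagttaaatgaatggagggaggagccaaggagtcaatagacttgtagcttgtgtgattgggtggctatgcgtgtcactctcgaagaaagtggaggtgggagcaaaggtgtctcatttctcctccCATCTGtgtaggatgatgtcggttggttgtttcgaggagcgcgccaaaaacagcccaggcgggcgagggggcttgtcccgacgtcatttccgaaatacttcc
Cox7a2: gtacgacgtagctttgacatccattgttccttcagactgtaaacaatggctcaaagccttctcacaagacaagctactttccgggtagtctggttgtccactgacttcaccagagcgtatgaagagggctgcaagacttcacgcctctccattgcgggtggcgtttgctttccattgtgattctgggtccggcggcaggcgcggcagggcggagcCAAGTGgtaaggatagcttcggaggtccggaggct
Cox6a1: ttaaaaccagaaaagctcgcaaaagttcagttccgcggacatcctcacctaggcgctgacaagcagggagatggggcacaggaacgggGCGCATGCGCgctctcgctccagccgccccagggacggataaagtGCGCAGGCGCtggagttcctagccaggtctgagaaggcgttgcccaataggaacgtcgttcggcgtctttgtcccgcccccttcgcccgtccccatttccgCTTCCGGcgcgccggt

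The windows differed in CG dinucleotides, which are dense in the promoters of many widely used genes. Cox8b held 1 and Cox7a1 held 4, against 11 in Cox8a, 14 in Cox7a2 and 26 in Cox6a1, with a median of 6 over 32851 promoters. The GC content was 47.2% in Cox8b, 51.2% in Cox7a1, 52.8% in Cox8a, 54.8% in Cox7a2 and 62.8% in Cox6a1, with a median of 52.4%. NRF1, a factor known for genes of the respiratory chain, had matches in the Cox6a1 window alone of the 7 (GCGCATGCGC and GCGCAGGCGC), and 3.74% of all promoters held one. ETS matches (CCGGAAG) were in Cox6a1 and Cox6b1, and in 6.91% of all promoters. The E-box (CANNTG) was in 6 of the 7 windows and in 66.2% of all promoters. No window of the 7 matched MEF2 (3.2% of all promoters), YY1 (AAGATGGC, 1.56%) or the letters TATAAA of the promoter box (12.4%). The ERR motif (AAGGTCA), held by 4.08% of all promoters, was in none of them either. A match is a description of the letters, and no binding was measured.

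Per length of transcript (GENCODE vM1 exons), the muscle forms were the more abundant of their pairs. For COX7A this rests on the lengths, since the mean log2 ratio of counts Cox7a1/Cox7a2 was −0.14 in ac-WT hearts. Copies of the ubiquitous forms elsewhere in the genome, given below, also limit the comparison. In ac-WT hearts the level per kilobase (kb) was 1460 ± 928 CPM for Cox6a2 and 127 ± 17.9 for Cox6a1 (SD, n = 6). It was 1034 ± 787 for Cox7a1 and 475 ± 127 for Cox7a2, and 951 ± 623 for Cox8b and 331 ± 42.9 for Cox8a. Cox4i1 stood highest at 1473 ± 558 CPM per kb and Cox4i2 lowest at 6.13 ± 1.89. Cox6b1 followed Cox6a2 with 1050.23 ± 389 CPM per kb, and Cox7a2l (164 ± 12.3) stood between Cox8a and Cox6a1. Neighbours in this order differed by less than the SD of either gene for Cox4i1 and Cox6a2, for Cox6b1 and Cox7a1, and for Cox7a1 and Cox8b.

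Levels were lower in ac-CYB5R3–KO hearts for all 10 under TMM and for 8 with total counts, where Cox7a2l and Cox8a turned to 0.10 and 0.0038 on the log2 scale. At an unadjusted p under 0.01, 4 of the 10 (Cox6a2, Cox7a1, Cox7a2 and Cox8b) were lower, where 3.27% of all 17847 genes tested were. At a p under 0.05, 8 of the 10 were lower, against 9.73% of all genes. After adjustment over all genes, 0 of the 10 had an edgeR p under 0.05 (0.101% of all genes did), and the same count was 2 with DESeq2 (Cox7a1 and Cox7a2), where 437 of the 17847 genes passed, and 0 with limma-voom. The median log2 fold change of the members was −0.52, beside −0.01 over all genes tested. Without ac-WT hearts 2 and 3 this median was −0.25, and Cox7a2 alone was lower at p under 0.01. With total counts it was −0.16, beside 0.256 over all genes.

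**Figure D1:**
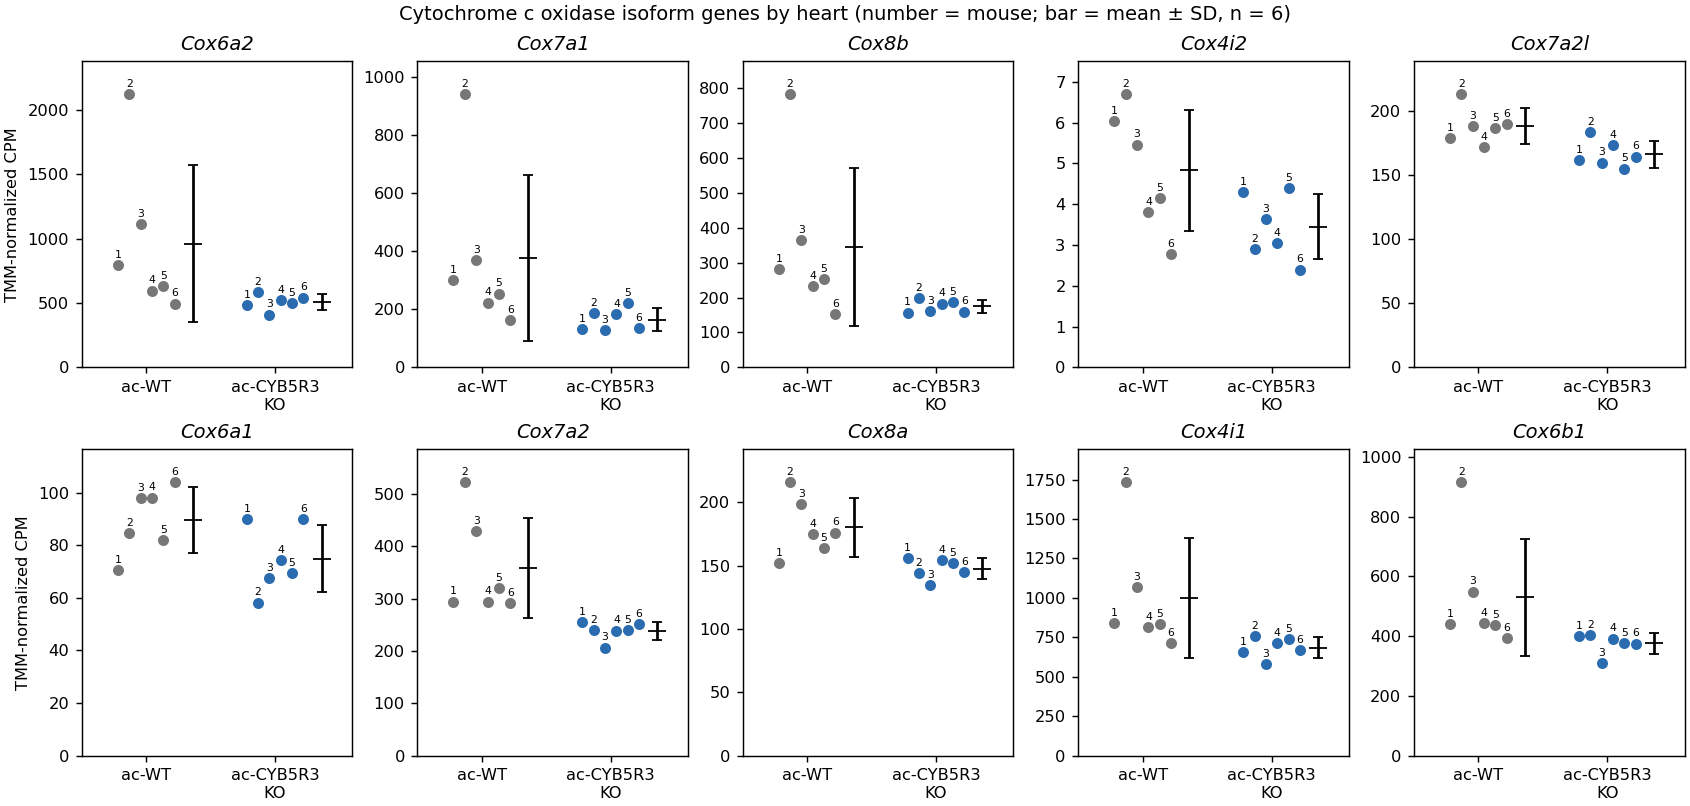
TMM-normalized CPM (linear axis from 0) of the 10 genes in each of the 6 ac-WT and 6 ac-CYB5R3–KO hearts, numbered by mouse, with the mean ± SD. Of these 10 genes, Cox7a2 alone has groups that do not overlap, and ac-WT heart 2 stands at the top in 9 of the 10 panels.

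Cox7a1, the muscle form of COX7A (NCBIM37 chr7:30969190-30971047, plus strand), had the lowest log2 fold change of the 10. It lay between 164 and 943 CPM in the ac-WT group (median 278) and between 128 and 223 CPM in the ac-CYB5R3–KO group (median 160). The groups overlapped, with 3 of the 6 ac-CYB5R3–KO hearts below the lowest ac-WT heart. The mean was 376 ± 286 CPM against 165 ± 38.8 (SD, n = 6 each), and the log2 fold change was −1.19 ± 0.36 (SE, edgeR adjusted p = 0.194, exact permutation p = 0.013). The permutation test, here and for the other members, was made on log2(CPM + 1) and is not adjusted. Heart ac-WT 2 held 943 CPM and the next heart 369.9, and without ac-WT 2 the log2 fold change was −0.66. Without both ac-WT 2 and 3 it was −0.50 (edgeR adjusted p = 0.553, exact permutation p = 0.0571).

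Cox7a2, the form of COX7A made in most tissues (chr9:79603048-79607660, minus strand), was the only member whose groups did not overlap, as in 1.04% of all genes tested. Outside the members it shared this with the complex IV subunit genes Cox5b, Cox6c, Cox7b, Cox7c and Ndufa4, given below. It lay between 291 and 523 CPM in the ac-WT group (median 307) and between 206 and 254 CPM in the ac-CYB5R3–KO group (median 240). The mean was 358 ± 96.1 against 238 ± 17.0 CPM (SD, n = 6 each), and the log2 fold change was −0.59 ± 0.16 (SE, edgeR adjusted p = 0.173, exact permutation p = 0.00216). The unadjusted edgeR p stayed under 0.01 whichever heart was left out, and also without ac-WT 2 and 3. There the log2 fold change was −0.32 (edgeR adjusted p = 0.339, exact permutation p = 0.00952). With total counts the log2 fold change was −0.25, not under 0.01.

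Cox8b, the muscle form of COX8 (chr7:148084842-148086345, minus strand), lay between 152 and 782 CPM in the ac-WT group (median 268) and between 157 and 199 CPM in the ac-CYB5R3–KO group (median 171). The lowest heart of all was ac-WT 6, so that 0 of the ac-CYB5R3–KO hearts lay below the ac-WT range. The mean was 344 ± 225 against 174 ± 17.9 CPM (SD, n = 6 each), and the log2 fold change was −0.98 ± 0.31 (SE, edgeR adjusted p = 0.203, exact permutation p = 0.0195). Without ac-WT 2 it was −0.54, and without ac-WT 2 and 3 it was −0.38 (edgeR adjusted p = 0.557, exact permutation p = 0.0857). Cox8a, the ubiquitous form (chr19:7289648-7292106, minus strand), ran from 152 to 216 CPM (median 176) and from 134 to 156 CPM (median 148). Its spread was narrower than that of Cox8b in both groups, and the groups overlapped. The log2 fold change was −0.29 ± 0.10 (SE, edgeR adjusted p = 0.235, exact permutation p = 0.00866), and −0.16 without ac-WT 2 and 3 (exact permutation p = 0.0381).

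Cox6a2, the muscle form of COX6A (chr7:135348950-135349880, minus strand), lay between 497 and 2126 CPM in the ac-WT group (median 714) and between 410 and 584 CPM in the ac-CYB5R3–KO group (median 514). The groups overlapped, and 2 ac-CYB5R3–KO hearts lay below the lowest ac-WT heart. The mean was 961 ± 611 against 508 ± 59.1 CPM (SD, n = 6 each), and the log2 fold change was −0.92 ± 0.31 (SE, edgeR adjusted p = 0.217, exact permutation p = 0.0173). Without ac-WT 2 it was −0.50, and without ac-WT 2 and 3 it was −0.30 (edgeR adjusted p = 0.634, exact permutation p = 0.0762). Cox6a1, the ubiquitous form (chr5:115795651-115798990, minus strand), ran from 70.6 to 104 CPM (median 91.2) and from 58.1 to 90.01 CPM (median 71.8). Its highest heart was ac-WT 6, unlike the other 9 members. The log2 fold change was −0.26 ± 0.13 (SE, edgeR adjusted p = 0.386, exact permutation p = 0.0758), and −0.23 without ac-WT 2 and 3 (exact permutation p = 0.162).

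Single hearts decided some of these calls. By the unadjusted edgeR p, Cox6a2 was no longer under 0.01 when ac-WT 1, 2 or 3 or any of the 6 ac-CYB5R3–KO hearts was left out, with log2 fold changes from −1.05 to −0.50 over all 12 omissions. Cox8b lost the call without ac-WT 3 or any of the 6 ac-CYB5R3–KO hearts, with log2 fold changes of −1.03 to −0.95 in those fits. Over all 12 omissions it ran from −1.13 to −0.54. Cox7a1 lost the call without ac-CYB5R3–KO 1, 3, 4 or 6, at −1.215 to −1.13 in those fits and −1.34 to −0.66 over all 12. Without ac-WT 6, Cox4i1 and Cox4i2 joined the genes under 0.01 (log2 fold changes −0.63 and −0.60), and Cox8a did so without ac-WT 1 (−0.33). The count of members called was thus between 1 and 6 of the 10, while the share of all genes called lower in the same fits was between 1.59% and 4.65%.

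Cox4i1, the common form of COX4 (chr8:123192190-123198109, plus strand), lay between 711 and 1735 CPM in the ac-WT group (median 836) and between 578 and 759 CPM in the ac-CYB5R3–KO group (median 690). The groups overlapped, and ac-WT 2 was far above the next heart at 1067 CPM. The log2 fold change was −0.55 ± 0.20 (SE, edgeR adjusted p = 0.248, exact permutation p = 0.00866). It was −0.30 without ac-WT 2, and −0.21 without ac-WT 2 and 3 (exact permutation p = 0.0381). Cox4i2 (chr2:152579909-152590773, plus strand) was the least counted member, with 118 to 321 reads per heart. It ran from 2.79 to 6.70 CPM (median 4.81) and from 2.40 to 4.39 CPM (median 3.35). The groups overlapped, with 1 ac-CYB5R3–KO heart below the ac-WT range. The log2 fold change was −0.48 ± 0.22 (SE, edgeR adjusted p = 0.331, exact permutation p = 0.0931), and −0.27 without ac-WT 2 and 3 (exact permutation p = 0.362).

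Cox6b1, the common form of a subunit that joins the monomers of the enzyme (chr7:31401993-31411170, minus strand), lay between 393 and 917 CPM in the ac-WT group (median 443) and between 309 and 404 CPM in the ac-CYB5R3–KO group (median 385). Its log2 fold change was −0.49 ± 0.19 (SE, edgeR adjusted p = 0.267, exact permutation p = 0.00649). It was −0.26 without ac-WT 2, and −0.17 without ac-WT 2 and 3 (exact permutation p = 0.0286). Cox7a2l, a relative of COX7A known for its place in respiratory supercomplexes (chr17:83901259-83913673, minus strand), ran from 172 to 213 CPM (median 187) and from 155 to 183 CPM (median 163). Both genes overlapped between the groups, with 4 ac-CYB5R3–KO hearts below the ac-WT range in each. For Cox7a2l the log2 fold change was −0.18 ± 0.09 (SE, edgeR adjusted p = 0.372, exact permutation p = 0.0108), and −0.12 without ac-WT 2 and 3 (exact permutation p = 0.0476).

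Within a heart, the ratio of a muscle form to its ubiquitous form does not depend on library scaling. In each of the 3 muscle pairs the mean log2 ratio of counts was lower in ac-CYB5R3–KO hearts, but in none did the difference pass the exact test. For Cox8b/Cox8a it lay between −0.21 and 1.86 in the ac-WT group (median 0.75) and between 0.0099 and 0.47 in the ac-CYB5R3–KO group (median 0.25). The groups overlapped, and all 6 ac-CYB5R3–KO hearts lay below the ac-WT median. The difference was −0.50 ± 0.29 (SE, n = 6 each, two-sided exact permutation p = 0.0931, adjusted over the 4 ratios p = 0.304). As a share of the pair's counts, Cox8b took 62.0% ± 10.6 in ac-WT and 54.1% ± 2.65 in ac-CYB5R3–KO hearts (SD, n = 6 each). This pair turned on single hearts, since the difference was −0.28 without ac-WT 2 (exact permutation p = 0.186), −0.69 without ac-WT 6 (exact permutation p = 0.00866) and −0.46 without both (exact permutation p = 0.019, an omission chosen after seeing the data). Without ac-WT 2 and 3, the libraries that stood apart, it was −0.19 (exact permutation p = 0.381).

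For Cox7a1/Cox7a2 the log2 ratio lay between −0.82 and 0.85 in the ac-WT group (median −0.27) and between −0.94 and −0.11 in the ac-CYB5R3–KO group (median −0.53). The groups overlapped, and the 2 highest hearts were ac-WT 2 and 1. The difference was −0.41 ± 0.27 (SE, n = 6 each, exact permutation p = 0.152, adjusted p = 0.304), and the share of Cox7a1 was 47.5% ± 9.53 against 40.6% ± 5.54 (SD). Without ac-WT 2 the difference was −0.21 (exact permutation p = 0.303), and without ac-WT 2 and 3 it was −0.18 (exact permutation p = 0.41).

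For Cox6a2/Cox6a1 the log2 ratio lay between 2.26 and 4.65 in the ac-WT group (median 3.22) and between 2.43 and 3.33 in the ac-CYB5R3–KO group (median 2.72). All ac-CYB5R3–KO hearts lay inside the ac-WT range. The difference was −0.47 ± 0.37 (SE, n = 6 each, exact permutation p = 0.245, adjusted p = 0.327), and −0.19 without ac-WT 2 (exact permutation p = 0.489). It was −0.054 without ac-WT 2 and 3 (exact permutation p = 0.848). The share of Cox6a2 was 89.5% ± 4.83 against 87.1% ± 2.29 (SD).

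For Cox4i2/Cox4i1 the log2 ratio lay between −8.01 and −7.11 in the ac-WT group (median −7.69) and between −8.12 and −7.24 in the ac-CYB5R3–KO group (median −7.62). The ranges were almost the same, and the difference was 0.03 ± 0.21 (SE, n = 6 each, exact permutation p = 0.892). It was −0.036 without ac-WT 2 and 3 (exact permutation p = 0.914). Cox4i2 took 0.494% ± 0.121 of the pair's counts in ac-WT and 0.506% ± 0.132 in ac-CYB5R3–KO hearts (SD).

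**Figure D2:**
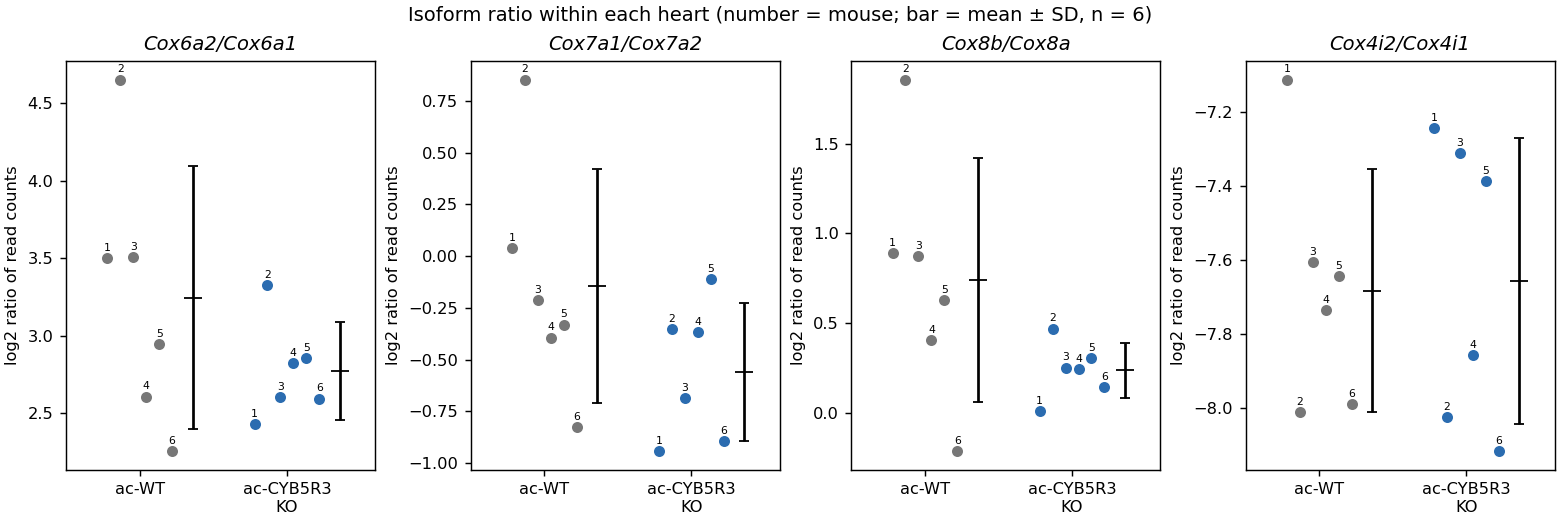
Log2 ratio of read counts of each muscle or regulated form to its ubiquitous form, in each of the 6 ac-WT and 6 ac-CYB5R3–KO hearts, numbered by mouse, with the mean ± SD. Heart ac-WT 2 is the highest and ac-WT 6 the lowest ac-WT heart in the first 3 panels, and the groups overlap in all 4.

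The ratios of the 3 muscle pairs moved together from heart to heart. Cox6a2/Cox6a1 and Cox8b/Cox8a had Pearson's r = 0.968 over the 12 hearts (permutation p = 1e-05, the smallest the resampling can give, adjusted over 6 relations 6e-05) and Spearman's rho = 0.951 (permutation p = 4e-05). For Cox6a2/Cox6a1 and Cox7a1/Cox7a2, r was 0.922 (permutation p = 0.00011) and rho 0.916 (permutation p = 9e-05), and for Cox7a1/Cox7a2 and Cox8b/Cox8a, r was 0.927 (permutation p = 8e-05) and rho 0.881 (permutation p = 0.00032). Without the 2 hearts farthest from the median, r was 0.885, 0.809 and 0.787 in this order. Within the 6 ac-WT hearts r was 0.982, 0.970 and 0.981 (permutation p = 0.00278, 0.00278 and 0.00139). Within the 6 ac-CYB5R3–KO hearts it was 0.934, 0.712 and 0.762 (permutation p = 0.00833, 0.0861 and 0.0653). The ratio Cox4i2/Cox4i1 had r of −0.129 with Cox6a2/Cox6a1, −0.0474 with Cox7a1/Cox7a2 and −0.0585 with Cox8b/Cox8a, which turned to 0.217, 0.631 and 0.186 without the 2 farthest hearts.

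**Figure D3:**
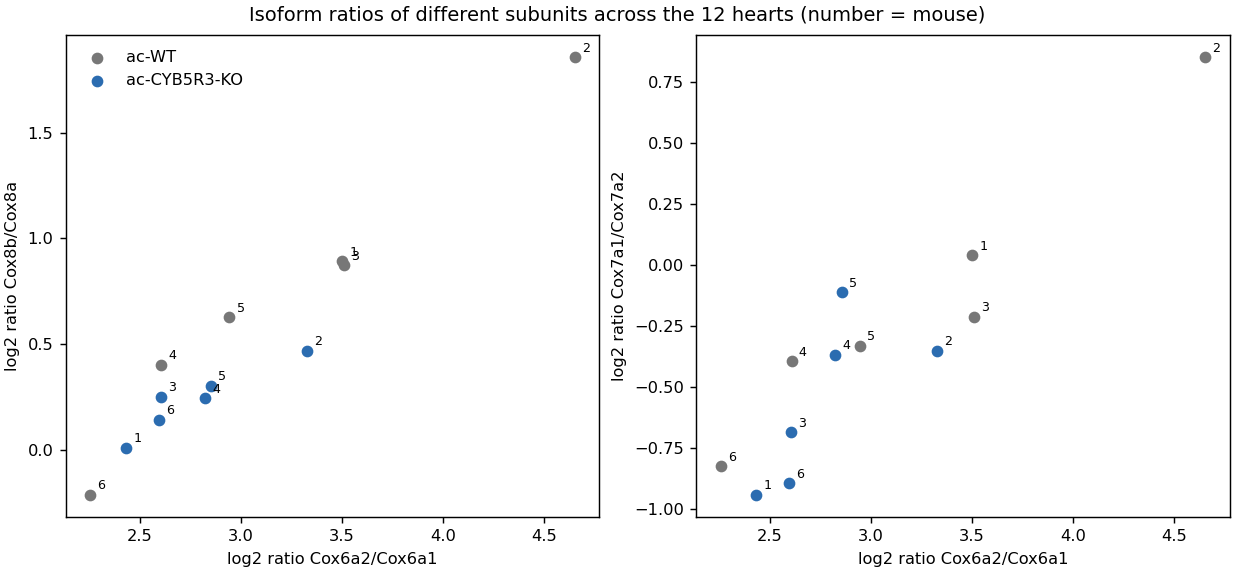
Log2 ratios of read counts of the COX8 pair (left) and the COX7A pair (right) against that of the COX6A pair, 1 point for each of the 12 hearts, numbered by mouse. Hearts high in one ratio are high in the other (r = 0.968 and 0.922), and ac-WT 2 lies far from the rest.

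Of 9 further nuclear subunit genes 7 were tested, and 5 were lower at an edgeR p under 0.01 (3.27% of all genes were), with a median log2 fold change of −0.61. These were Cox5b (−0.81 ± 0.21 SE), Cox6c (−0.69 ± 0.22), Cox7b (−0.66 ± 0.21), Cox7c (−0.61 ± 0.20) and Ndufa4 (−0.57 ± 0.14). In all 5 the CPM ranges of the groups were separate, as they were for Cox7a2, whereas those of Cox5a and Cox6b2 overlapped. Cox5a (−0.31, edgeR adjusted p = 0.354) and Cox6b2, known from testis (0.18, edgeR adjusted p = 0.685), did not pass, and Cox7b2 and Cox8c were under the filter. Without ac-WT 2 and 3 the count was 2, and with total counts it was 1. The mitochondrially encoded mt-Co1, mt-Co2 and mt-Co3 had log2 fold changes of −0.53, −0.59 and −0.65 (edgeR adjusted p = 0.47, 0.361 and 0.34).

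Set against Cox5a, Cox5b, Cox6c, Cox7b and Cox7c, 5 subunits with no tissue form among the members, no member was called lower. With every library scaled to these 5, 0 of the 10 were lower at an edgeR p under 0.01 (0.191% of all genes were) and 0 were higher (17.7% of all genes were). The count lower was 0 at every setting tried. With these 5 as the reference, Cox7a2l alone had an unadjusted p under 0.05, and it was higher. Its log2 fold change (0.37) was below the median of all genes tested, which was 0.52 on this scale. At other settings Cox7a1 was lower at that threshold with 8 subunits as the reference, with Cox5a alone, without ac-WT 6 and without ac-CYB5R3–KO 5. Cox8b was so with Cox5a alone and without ac-WT 6. The 3 muscle forms lay below 0, with Cox7a1 at −0.45 ± 0.22 (SE, edgeR adjusted p = 0.11), Cox8b at −0.26 ± 0.19 (edgeR adjusted p = 0.234) and Cox6a2 at −0.21 ± 0.16 (edgeR adjusted p = 0.277). Cox7a2, which had the clearest difference of the members under TMM, was at 0.01 ± 0.12. Among the others, Cox7a2l was at 0.37 ± 0.16 (edgeR adjusted p = 0.0812), Cox8a at 0.27 ± 0.15 and Cox6a1 at 0.27 ± 0.21. Without ac-WT 2 and 3, Cox6a2 was at 0.0059 and Cox7a1 at −0.20 on this scale.

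**Figure D4:**
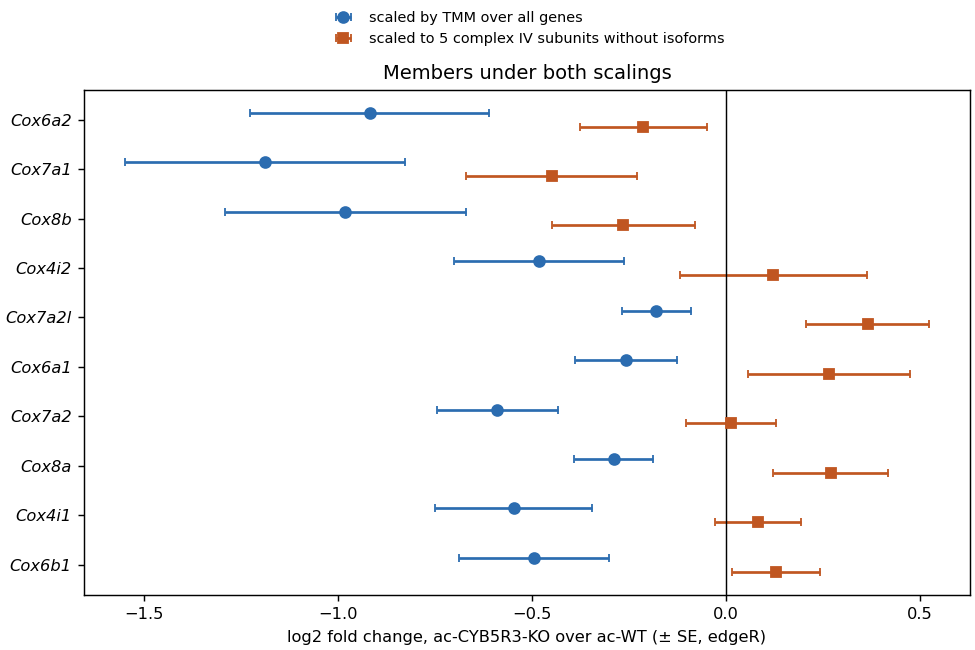
Log2 fold change (± SE, edgeR, n = 6 and 6) of the 10 genes scaled by TMM (circles) and scaled to 5 other subunits of complex IV (squares). All circles lie below 0 (with total counts in place of TMM, Cox7a2l and Cox8a would lie at 0.10 and 0.0038), and the squares lie between −0.45 for Cox7a1 and 0.37 for Cox7a2l. The median of all genes tested was 0.52 on the scale of the squares.

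Assembly factors insert the copper, heme and subunits of complex IV. Of 28 assembly factors listed 27 were matched and 25 tested, and their median log2 fold change was −0.16. With an edgeR p under 0.01, 2 of the 25 were lower, beside 3.27% of all genes, and 0 higher. These were Cox17, a copper chaperone (−0.71 ± 0.22 SE), and Cmc2 (−0.50 ± 0.15). The highest log2 fold change was that of Cox18 (0.34, edgeR adjusted p = 0.244). Without ac-WT 2 and 3 the count was 0.

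**Figure D5:**
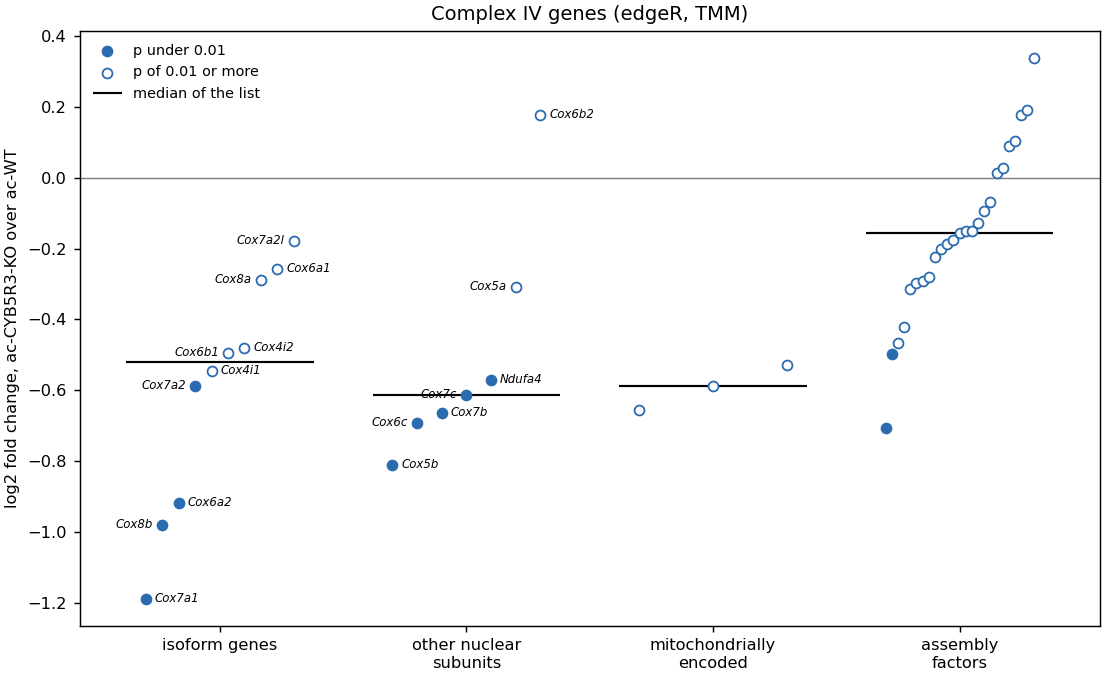
Log2 fold change (edgeR, TMM) of the 10 isoform genes, 7 other nuclear subunits, 3 mitochondrially encoded subunits and 25 assembly factors, 1 point a gene, filled where the unadjusted p is under 0.01, with the median of each list as a line. The medians are −0.52, −0.61, −0.59 and −0.16.

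Genes whose levels followed the members most closely over the 12 hearts were named by Pearson's r of log2(CPM + 1) among 14399 genes outside the complex IV lists. For Cox6a2 they were Gm16418 (0.990), Uqcr11, a subunit of complex III (0.988), and 2010107H07Rik (0.986). For Cox8b they were again Gm16418 (0.991) and Uqcr11 (0.989), with Fitm1 (0.983). Cox7a1 was followed by ENSMUSG00000102145 (0.993), Fndc5 (0.992) and Atp5j2, a subunit of ATP synthase (0.982). Cox4i2 had other neighbours, the early response genes Ier2 (0.935), Klf2 (0.924) and Zfp36 (0.918).

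Markers of cell types moved in part with the members. Of 10 cardiomyocyte markers, 3 (Tnni3, Myl2 and Myl3) were lower at an edgeR p under 0.01 (3.27% of all genes were). By log2 fold change 8 of the 10 lay below 0, while Actc1 (0.08) and Ryr2 (0.04) lay above. The summed level of the 10 was 22950 to 53820 CPM in the ac-WT group and 17140 to 28040 CPM in the ac-CYB5R3–KO group. The 2 highest sums were those of ac-WT 2 (53820) and 3 (42360). The same hearts were low in the sum of the fibroblast list (921.4 and 917.1 CPM, in a range of 917.1 to 3695 in ac-WT and 2210 to 3392 in ac-CYB5R3–KO hearts). They were also low in the macrophage list (164.4 and 164.7 CPM, in ranges of 164.4 to 575.5 and 320.4 to 481.2). Of 7 smooth muscle and pericyte markers, 2 (Myh11 and Acta2) were lower at that p, with sums of 378.9 to 508.7 and 316.3 to 451.5 CPM. By log2 fold change 5 of the 7 lay below 0, while Pdgfrb (0.21) and Tagln (0.18) lay above. In the fibroblast, endothelial and macrophage lists 5 genes each were tested and 0 called. In the atrial (3 of 5 genes tested), skeletal muscle (4 of 8) and brown fat (1 of 6) lists 0 were called as well. Of the red blood cell list 3 genes were tested and 0 called, with sums of 220.1 to 4461 and 1316 to 12160 CPM. The skeletal muscle list, whose tissue shares the muscle forms, summed to between 12.5 and 33.9 CPM in ac-WT and between 13.4 and 40.7 CPM in ac-CYB5R3–KO hearts. Of the cartilage and airway list 2 genes were tested and 1, Col2a1, was higher at p under 0.01, as were 237 of all 17847 genes. Col2a1 had 0 to 51 reads per heart (edgeR adjusted p = 0.173). The part of these cell types in the members' differences was not tested, and in whole-heart RNA fewer cells of a type and less RNA per cell cannot be told apart.

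Copies of the transcripts elsewhere in the genome differed between the forms. Among stretches of at least 75 bases at 90% identity or more (NCBIM37), Cox4i1, Cox4i2, Cox6a2, Cox7a1 and Cox8b had 0 other loci. A copy covered 94.2% of the Cox7a2l transcript at up to 99.2% identity, and copies covered 97.7% of Cox6a1, 94.1% of Cox6b1, 87.3% of Cox8a and 25.6% of Cox7a2. Reads of these 5 genes could have been divided or dropped in counting, and the levels of the 3 muscle ratios are uncertain to that extent.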

How the data were processed

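RNA from 12 mouse hearts was read as unpaired reads from a stranded total RNA kit, and the authors deposited raw counts, 1 whole number for each of 53700 Ensembl genes and heart, without normalization. The paper's methods name STAR and mm9, whereas the submitters' processing notes name STAR, featureCounts and GRCm39. The annotation and strand setting of the counts are not given in the sources used here, so reads of antisense partners may not have been told apart. Columns were assigned by the sample labels, and 0 were left unused. Symbols were matched for 57.8% of identifiers, and coordinates are those of GENCODE vM1 (NCBIM37, the mm9 assembly).

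After filterByExpr (minimum count 10) and TMM scaling, edgeR (version 4.0.16, R 4.3.3) gave two-sided quasi-likelihood tests over 17847 genes with Benjamini-Hochberg adjustment. The standard error is the log2 fold change over the root of F. Ratios used counts plus 0.5 and an exact permutation test over the 924 splits of the hearts, whose smallest p is 0.00216. The same test on log2(CPM + 1) of each member, unadjusted, was added after seeing the data. Without ac-WT 2 and 3 it ran over 210 splits. Correlation tests used 100000 resamples, or all orders within groups of 6. Copies were sought with blastn (version 2.17.0). Named genes were the members, all listed subunits, assembly factors with an unadjusted p under 0.01, the one that rose most, and 3 nearest genes for each of 4 members. The members and lists were chosen with earlier results of these data known. Alternatives were DESeq2 (1.42.0), limma-voom (limma 3.58.1), total counts, other filters, robust estimates, a replicate block and omitted hearts, and the omission of ac-WT 2 and 6 together and Cox5a alone as reference were added after seeing the data. The tests were tested on simulated data. The biological coefficient of variation was 26.5%, so spread between hearts limits the precision more than counting error. Of 66 pairs of libraries 0 were identical.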

Additional observations from a re-analysis of the deposited data

Results flagged for a closer look

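In 28 groups of 6 hearts (10 levels and 4 ratios in both groups), 6 had a heart whose gap to its nearest neighbour exceeded the critical share of the range in Dixon's test, which chance passes in about 1 of 20 groups. Heart ac-WT 2 stood above the other ac-WT hearts in Cox4i1 (1735 CPM, next 1067), Cox7a1 (943.3 CPM, next 369.9), Cox8b (782.4 CPM, next 363.5) and Cox6b1 (916.7 CPM, next 549.7). Heart ac-CYB5R3–KO 3 stood below the other ac-CYB5R3–KO hearts in Cox7a2 (206.3 CPM, next 238.6) and Cox6b1 (309.1 CPM, next 374.8). In the 4 ratios 0 hearts passed this test.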

How the results depend on the processing

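The 4 members lower at p under 0.01 (3.27% of all genes) became 6 with DESeq2 (4.91%) and 2 with limma-voom (2.27%). The count was 1 with total counts (0.79%) and 1 without ac-WT 2 and 3 (1.32%). Over single omitted hearts it ranged from 1 (without ac-CYB5R3–KO 1, 3, 4 or 6) to 6 (without ac-WT 6). Members past an adjusted p of 0.05 were 2 with DESeq2 and 0 over single omitted hearts. The 5 other subunits called became 1 with total counts and 2 without ac-WT 2 and 3, and ranged from 2 to 5. The 2 assembly factors became 0 in both settings and ranged from 0 to 2. Relative to the 5 shared subunits the count was 0 throughout, although with Cox5a alone as reference Cox7a1 was at −0.81, Cox8b at −0.61 and Cox6a2 at −0.55 (edgeR adjusted p = 0.169, 0.188 and 0.197). Total counts moved the median of all genes to 0.256 and the lower share of calls at p under 0.01 from 71.1% to 33.1%, and turned Cox7a2l (0.10) and Cox8a (0.0038), while relative to that median the members stood at −0.42, against −0.51 under TMM.

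Over single omitted hearts the difference of the log2 ratio ranged from −0.67 to −0.19 for Cox6a2/Cox6a1, −0.55 to −0.21 for Cox7a1/Cox7a2, −0.69 to −0.28 for Cox8b/Cox8a and −0.056 to 0.14 for Cox4i2/Cox4i1. Without ac-WT 2 and 6, Cox8b/Cox8a was at −0.46, and without ac-WT 2 and 3, Cox4i2/Cox4i1 reversed to −0.036. The cause of these shifts was not tested.

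Hearts with the same replicate number share a number only (correlation of deviations −0.160 to 0.360, mean 0.133, against −0.0255 for other pairs, with 6 of 12 hearts closest to their own number). With the replicate block 2 members (2.45% of all genes), 2 other subunits and 1 assembly factor were called, and no ratio changed its call.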
